A study of Mus musculus with 2 samples.

Results

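The mRNAs described here are 10 genes by which microglia, the resident macrophages of the brain, are usually recognised: the complement genes C1qa, C1qb and C1qc, the surface receptor Trem2 with its adaptor Tyrobp, the growth factor receptor Csf1r, the G protein-coupled receptors Cx3cr1, P2ry12 and Gpr34, and the membrane protein Tmem119. They were taken by name, with no rule on their values, from 23329 genes in the deposited files, and each had a single transcript there. Earlier results of these data were known when they were chosen. RNA from total homogenate of C57BL/6 wild-type mouse brain was set beside RNA from a synaptosome-enriched fraction, that is, pinched-off nerve endings with whatever membranes travel with them. After nuclei were spun down, the fraction was taken between 3% and 10% Percoll, per the labels' protocols. There was 1 library of each kind. The labels give the tissue as whole brain, and state neither age, sex nor whether animals were pooled. Both titles carry the tags WT1 and CT10, which the labels do not explain.

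Microglia survey the tissue with fine processes that touch synapses, and they depend on signals through Csf1r. C1q, assembled from the products of C1qa, C1qb and C1qc, starts the classical complement pathway and can tag synapses for removal. Trem2 binds lipids and lipoproteins and signals through Tyrobp, whose cytoplasmic tail carries an immunoreceptor tyrosine-based activation motif (ITAM). Cx3cr1 receives the neuronal chemokine fractalkine, P2ry12 senses nucleotides and steers the processes, and Gpr34 is a receptor for lysophosphatidylserine.

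The 3 C1q chains are related genes that lie side by side on the minus strand of chromosome 4, with 3624 bases between C1qb and C1qc and 3001 between C1qc and C1qa. Each codes for a collagen-like stalk followed by a globular head. The coding sequence of the longest unbroken stretch of stalk is shown for each chain, because similar sequence could let reads of one chain be credited to another. Capitals mark the glycine codon that opens each triplet of codons. The sequences are from GENCODE M21 transcripts (GRCm38) on the minus strand, at chr4:136895917-136898803 for C1qa, chr4:136880129-136886187 for C1qb and chr4:136889804-136893065 for C1qc.
C1qa: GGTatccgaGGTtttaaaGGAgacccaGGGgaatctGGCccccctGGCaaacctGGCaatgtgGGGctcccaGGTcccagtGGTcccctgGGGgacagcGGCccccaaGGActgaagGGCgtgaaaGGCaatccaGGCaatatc
C1qb: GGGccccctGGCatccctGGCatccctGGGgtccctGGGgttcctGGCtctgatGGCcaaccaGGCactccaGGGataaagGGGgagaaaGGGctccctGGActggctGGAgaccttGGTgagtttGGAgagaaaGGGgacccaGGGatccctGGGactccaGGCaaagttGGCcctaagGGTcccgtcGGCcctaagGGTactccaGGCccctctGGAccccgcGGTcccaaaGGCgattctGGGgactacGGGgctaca
C1qc: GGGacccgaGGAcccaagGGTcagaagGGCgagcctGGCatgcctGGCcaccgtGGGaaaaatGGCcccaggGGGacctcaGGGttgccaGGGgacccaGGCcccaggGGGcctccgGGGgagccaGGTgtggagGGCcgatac

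The stretch held 16 triplets in C1qa and in C1qc and 29 in C1qb. Over the aligned coding bases, C1qa was 59.8% identical to C1qb and 63.3% to C1qc, and C1qb was 62.3% identical to C1qc. The longest run of bases shared exactly by any 2 of the 3 transcripts was 15, between C1qb and C1qc, against a read length of 100 bases in the labels. Among the 10 members, only Cx3cr1 shared any stretch of 50 bases with transcripts of another gene, at 12 of its 3704 such stretches.

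Tyrobp had the highest ratio of the 10. Its coding bases around the ITAM are shown, with the motif in capitals from the first tyrosine codon to the last leucine codon (codons 92 to 106 of 114), from the GENCODE M21 transcript at chr7:30413788-30417577 on the plus strand.
Tyrobp: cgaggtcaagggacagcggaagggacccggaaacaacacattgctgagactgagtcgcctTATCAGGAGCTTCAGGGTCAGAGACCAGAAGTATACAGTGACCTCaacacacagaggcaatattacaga

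Estimated counts totalled 15210857 in the homogenate library and 13709539 in the synaptosome library. Levels are CPM, the count scaled to library size, here after TMM scaling. TMM sets the bulk of genes to a ratio near 1, so a ratio says how a gene stood against that bulk. With library totals in place of TMM every log2 ratio lies lower by 0.49, since the shift was -0.49 and the median of all genes kept moved from -0.01 to -0.51. Each ratio of synaptosome fraction to homogenate comes with a 95% interval for counting error only. Animals and preparations were not replicated, so their spread is unknown and no p-value is given. A gene passed the rule of size when its ratio was at least 2-fold in either direction and its interval lay beyond 1.

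As a group the microglial mRNAs were higher in the synaptosome fraction. Summed, the 10 genes had 4786 homogenate counts and 5515 synaptosome counts, or 265 and 477 CPM, a ratio of 1.80 (1.73 to 1.87). In shares of all counts, without TMM, they took 0.0315% (95% exact binomial interval 0.0306 to 0.0324) and 0.0402% (0.0392 to 0.0413). All 10 were among the 14153 genes kept at a mean of at least 1 CPM. Tyrobp, C1qa and C1qb passed the rule as higher, 3 of 10, and 0 passed as lower. Of all genes kept, 12.8% passed as higher and 9.1% as lower (1807 and 1288 genes, and with library totals 636 and 3629, when Tyrobp was the 1 member that passed). Among the 9032 genes within the members' own range of abundance, 6.82 to 114 CPM, these shares were 10.3% and 6.54%. The median log2 ratio was 0.81 over the members and -0.03 over those genes of like abundance. In bulk RNA, more (or fewer) cells of a type and more (or less) RNA per cell cannot be told apart.

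**Figure D1:**
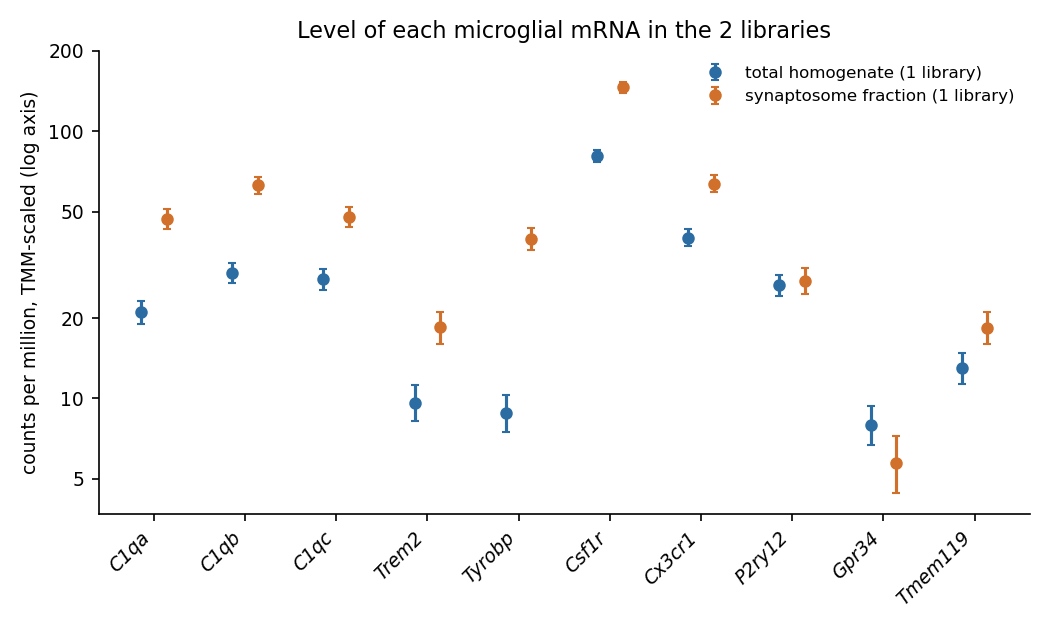
Level of each of the 10 mRNAs in TMM-scaled CPM (log axis) in the homogenate library (blue) and the synaptosome library (orange), with exact 95% Poisson intervals of the count. Tyrobp has the widest gap between the libraries, 8.81 against 39.6 CPM, and Gpr34 is the 1 gene that lies lower in the synaptosome fraction.

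The C1q chains were not equally high. C1qa had 379 homogenate and 543 synaptosome counts, which is 21.003 and 46.99 CPM and a ratio of 2.24 (1.96 to 2.56). C1qb had 531 and 725 counts, 29.4 and 62.7 CPM, a ratio of 2.13 (1.90 to 2.39). C1qc had 504 and 553 counts, 27.9 and 47.9 CPM, a ratio of 1.71 (1.52 to 1.94). All 3 were higher in the synaptosome fraction, C1qc by least, and summed they had a ratio of 2.01 (1.88 to 2.16). Compared pairwise, a contrast that scaling cannot move, the ratio of C1qa was 1.31 times that of C1qc (1.09 to 1.57) and that of C1qb 1.24 times that of C1qc (1.05 to 1.47). C1qa and C1qb differed by a factor of 1.05 with an interval of 0.880 to 1.25, which holds 1. The intervals of C1qa and C1qb reach below 2-fold, so their place on that side of the rule is not fixed by the counts.

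Tyrobp and Trem2, which act as one receptor complex, had different ratios. Trem2 (chromosome 17, 48346401 to 48352273 of mm10, as are all positions of members below, 5 exons) had 174 homogenate and 213 synaptosome counts, 9.64 and 18.4 CPM, a ratio of 1.91 (1.56 to 2.35) just short of the rule. Tyrobp (chromosome 7, 30413788 to 30417579, 5 exons) had 159 and 458 counts, 8.81 and 39.6 CPM, a ratio of 4.498 (3.75 to 5.42). The ratio of Tyrobp was 2.35 times that of Trem2 (1.78 to 3.11). Tyrobp lay at percentile 99.3 of the log2 ratios of all genes kept, and Trem2 at 85.7. Hcst, another signalling adaptor, lies 132 bases from Tyrobp on the opposite strand and had 3 counts in each library, too few to compare.

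Csf1r, the receptor for colony-stimulating factor 1 and interleukin 34 (chromosome 18, 61105572 to 61131139, 22 exons), carried the most counts of the 10. Its 1461 homogenate and 1690 synaptosome counts are 81.0 and 146 CPM, a ratio of 1.81 (1.68 to 1.94). Against the other 9 genes summed, its ratio differed by a factor of 1.01 with an interval of 0.924 to 1.09, which holds 1. Csf1r made up 30.5% of the counts of the 10 genes in homogenate and 30.6% in synaptosome RNA.

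The G protein-coupled receptors and Tmem119 had the 4 lowest ratios. Cx3cr1 (chromosome 9, 120048693 to 120068282) had 721 homogenate and 736 synaptosome counts, 39.96 and 63.7 CPM, a ratio of 1.59 (1.44 to 1.77). P2ry12 (chromosome 3, 59216271 to 59262831, within the span of Med12l on the other strand) had 480 and 319 counts, 26.6 and 27.6 CPM, a ratio of 1.04 (0.898 to 1.198). Gpr34 (chromosome X, 13632769 to 13640858, within the span of Cask on the other strand) had 143 and 66 counts, 7.92 and 5.71 CPM, or 1.39-fold lower (1.03 to 1.89). With TMM scaling, only Gpr34 was lower with an interval that excluded 1, and P2ry12 was the only member whose interval held 1. Both statements depend on the scaling, since library totals move every log2 ratio and interval by -0.49 and put P2ry12 at -0.44. Neither P2ry12 nor Gpr34 shared exon bases with its host gene in the files. The ratio of P2ry12 was 1.44 times that of Gpr34 (1.03 to 2.02), while Csf1r and Cx3cr1 differed by a factor of 1.13 (0.999 to 1.29). Summed, the 3 G protein-coupled receptors had a ratio of 1.302 (1.202 to 1.41), against 3.15 (2.76 to 3.60) for Trem2 with Tyrobp.

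Tmem119, a membrane protein used to tell microglia from blood-derived macrophages (chromosome 5, 113793729 to 113800352, 2 exons), had 234 homogenate and 212 synaptosome counts. These are 12.97 and 18.3 CPM, a ratio of 1.41 (1.17 to 1.71). Under library totals its log2 ratio was 0.01 (with TPM -0.04), and P2ry12 turned from 0.05 to -0.44 (with upper-quartile scaling -0.02) while the other 7 members above 0 kept their sign. Gpr34 went from -0.47 to -0.97.

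**Figure D2:**
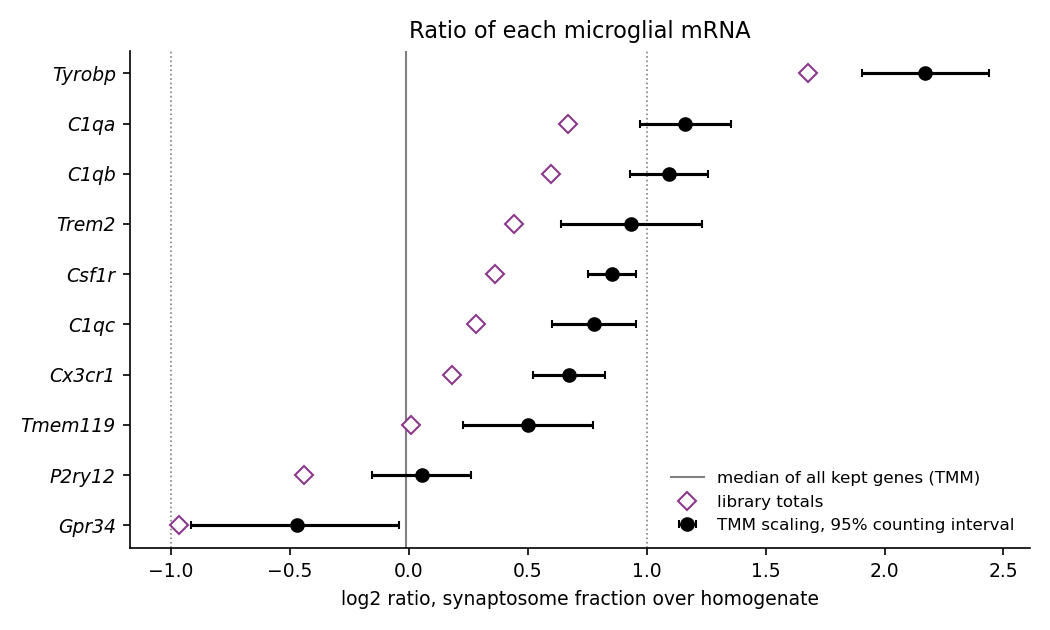
Log2 ratio of synaptosome fraction to homogenate for each member, with TMM scaling (black, 95% counting intervals) and with library totals (open diamonds); dotted lines mark 2-fold and the grey line the median of all genes kept. The order runs from Tyrobp at 2.17 down to Gpr34 at -0.47, and library totals move all points left by the same amount.

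Set against the other 9 members summed, 3 genes took a larger place in the synaptosome fraction, 4 a smaller one, and 3 had intervals that held 1. This tally weights genes by counts: in TPM, C1qa (1.07) and C1qb (1.02) lay nearer 1, and Csf1r (0.840) and C1qc (0.783) below the intervals given by counts. The larger were Tyrobp by a factor of 2.64 (2.19 to 3.19), C1qa by 1.27 (1.10 to 1.46) and C1qb by 1.21 (1.07 to 1.37). The smaller were Gpr34 at 0.393 (0.288 to 0.532), P2ry12 at 0.551 (0.474 to 0.640), Tmem119 at 0.778 (0.640 to 0.945) and Cx3cr1 at 0.868 (0.776 to 0.972). Of the counts of the 10 genes, Tyrobp held 3.32% in homogenate and 8.30% in synaptosome RNA, whereas P2ry12 went from 10.0% to 5.78%. With Tyrobp left out, the summed ratio of the other 9 was 1.71 (1.64 to 1.78).

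**Figure D3:**
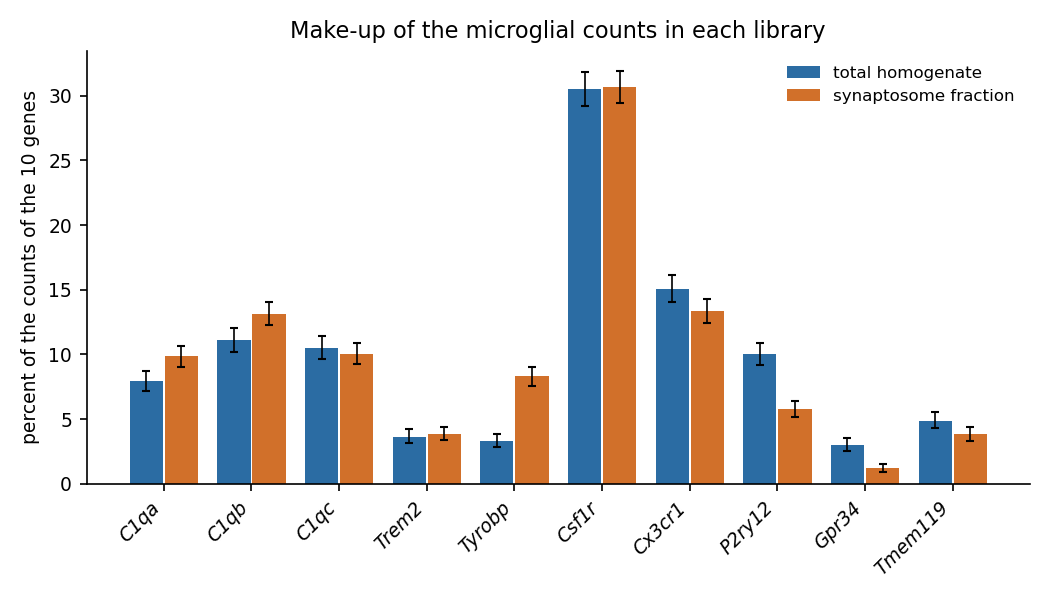
Share of each gene among the summed counts of the 10 genes, in percent, in the homogenate (blue) and the synaptosome fraction (orange), with exact 95% binomial intervals. Csf1r holds 30.5% and 30.6%, Tyrobp is larger in the synaptosome fraction, and P2ry12 and Gpr34 are smaller there.

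Levels of different genes can be compared only per length, for which the deposited TPM values serve. In the homogenate C1qb (85.8 TPM) and C1qc (82.2) came first, followed by Csf1r (60.4), C1qa (60.03) and Tyrobp (52.8). P2ry12 (33.4), Cx3cr1 (30.98) and Trem2 (27.4) came next, and Tmem119 (18.4) and Gpr34 (12.4) last. Of the 9 neighbouring pairs in this order, 5 did not differ beyond counting error: C1qb and C1qc, Csf1r and C1qa, C1qa and Tyrobp, P2ry12 and Cx3cr1, and Cx3cr1 and Trem2. In the synaptosome fraction Tyrobp led with 164 TPM, ahead of C1qb (126), C1qc (96.9), C1qa (92.5) and Csf1r (75.1). Below them were Trem2 (36.1), Cx3cr1 (34.01), P2ry12 (23.9), Tmem119 (17.96) and Gpr34 (6.15). There 2 of 9 neighbouring pairs did not differ beyond counting error, C1qc with C1qa and Trem2 with Cx3cr1. Tyrobp thus stood in the fifth place in one library and the first in the other, and the last places, Tmem119 and Gpr34, were the same in both libraries.

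The members also differ in transcript length, a property that no part of the choice used. The 5 with transcripts of up to 1200 bases, which are Tyrobp at 566 bases and C1qc, C1qb, C1qa and Trem2 at 1054 to 1088 bases, had log2 ratios from 0.78 to 2.17. The 3 between 1200 and 2400 bases, Gpr34, Tmem119 and P2ry12, had -0.47 to 0.50. The longest, Cx3cr1 at 3729 bases and Csf1r at 3875, had 0.67 and 0.85. Over all genes kept in these same classes the medians were 0.12, -0.07 and -0.01, and the shares that passed the rule as higher were 17.1%, 10.8% and 12.9%. The part of length in the ratios of the members was not tested.

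**Figure D4:**
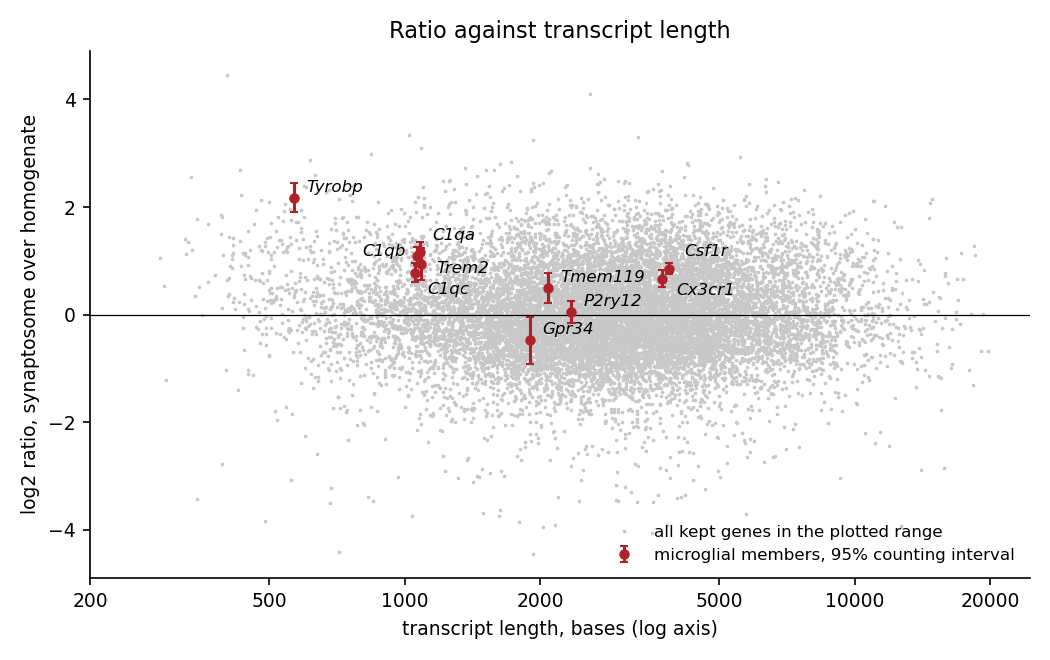
Log2 ratio of synaptosome fraction to homogenate against transcript length in bases (log axis) for the 10 members (red, 95% counting intervals) and for 14134 of the 14153 genes kept (grey; 19 lie outside the plotted range). The short transcripts C1qa, C1qb, C1qc, Trem2 and Tyrobp lie above Gpr34, Tmem119 and P2ry12, while the grey cloud is centred near 0 across lengths.

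Ligands of these receptors were measured in the same libraries. Of 6 genes kept on the ligand list, 3 passed the rule as higher and 0 as lower, with a median log2 ratio of 0.84. With library totals 1 was higher and 0 lower, and the median was 0.35. Both the counts and the medians include Gas6, which is not a ligand of any member and had a ratio of 1.27 (1.18 to 1.36). Apoe, an apolipoprotein bound by Trem2 and made mainly by astrocytes, had 15167 and 40555 counts and a ratio of 4.18 (4.10 to 4.25). Clu, another such apolipoprotein, had a ratio of 2.73 (2.68 to 2.79). Cx3cl1, the neuronal ligand of Cx3cr1, had a ratio of 2.54 (2.48 to 2.59), named here after its value was seen. The ligands of Csf1r lay near the typical gene: Il34 had a ratio of 1.11 (0.989 to 1.25) and Csf1, also named afterwards, one of 1.19 (1.03 to 1.38).

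Genes linked to C1q, not all of which act after it, went in both directions. Of 11 genes of the classical pathway and its receptors, 3 passed as higher and 2 as lower, with a median log2 ratio of 0.74 (with library totals 2 and 3, median 0.25). C2, a complement protease, had 23 and 51 counts and a ratio of 3.46 (2.08 to 5.94). Itgam, a chain of complement receptor CR3 on microglia, had 357 and 669 counts and a ratio of 2.93 (2.57 to 3.34), and Calr, a chaperone that can bind C1q, one of 2.34 (2.28 to 2.42). Cd93, a gene of endothelium, was 6.15-fold lower (3.61 to 11.3). C1s, a protease of the C1 complex, had 33 and 7 counts and was the other gene that passed as lower. C3, the central component, had 23 and 7 counts and a ratio of 0.475 (0.172 to 1.14), so its interval held 1 with TMM. With library totals C3 passed as lower too. C1s and C3 were named after their values were seen. Of 12 complement regulators kept, 5 passed as higher and 0 as lower (median 0.74), and with library totals 2 were higher and 1 lower (median 0.25). Cd46, a regulator left out by the limit on low values and named after its value was seen, had 27 and 3 counts and was 5.76-fold lower (1.77 to 29.7). Sez6l and Sez6l2, neuronal membrane proteins with complement-type domains, had ratios of 4.03 (3.88 to 4.19) and 2.94 (2.85 to 3.03), and Cd59a was 1.53-fold lower (1.11 to 2.13).

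Among the listed partners of Trem2 and Tyrobp, not all of them downstream, no kept gene passed the rule. Of 17 partner genes, 11 were kept, and 0 were higher and 0 lower by the rule. Of these 11, 5 had intervals above 1, a count not set beside that of all genes kept. Their median log2 ratio was 0.35, which was -0.14 with library totals. Fyn, a kinase that neurons also make, had the highest ratio at 1.75 (1.66 to 1.85), the sheddase Adam10 had 1.45 (1.33 to 1.57), and Zap70 was lowest at 0.726 (0.405 to 1.26). Treml2, a relative of Trem2 named after its value was seen, had 4 and 21 counts and was left out at under 1 CPM in library totals on average, though its ratio of 8.20 (2.77 to 32.8) met the rule of size. Trem1 and Sirpb1a had 0 counts in both libraries. A further list held receptors for nucleotides and adenosine other than P2ry12, and the nucleotide-degrading enzymes Entpd1 and Nt5e. Of its 7 kept genes, 0 passed in either direction and the median was 0.19 (-0.30 with library totals). P2rx4 had a ratio of 1.17 (0.956 to 1.43), Adora2a, a receptor mainly of striatal neurons, 1.26 (1.11 to 1.44), the enzyme Nt5e 1.38 (1.07 to 1.79) and P2ry6 0.732 (0.368 to 1.39). Of 9 myeloid transcription factors, 2 passed as higher and 0 as lower (median 0.18, and -0.32 with library totals, when 0 were higher and 2 lower). Spi1, the factor PU.1 and listed as Sfpi1, had 52 and 73 counts and a ratio of 2.19 (1.52 to 3.19). Sall1 had a ratio of 1.13 (0.964 to 1.32), and Mef2c, which neurons also make, was 1.90-fold lower (1.82 to 1.99).

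Of 50 further genes used to recognise microglia, 46 were kept. Intervals lay above 1 for 28 of these 46 and below it for 4, counts not set beside those of all genes kept. By the rule 10 were higher and 1 lower, with a median log2 ratio of 0.56. With library totals 3 were higher and 3 lower, and the median was 0.06. Aif1, the cytoskeletal protein Iba1, had 112 and 217 counts and a ratio of 3.03 (2.40 to 3.84), the highest. Ctsb and Ctsd, lysosomal proteases that neurons make too, had ratios of 2.42 (2.36 to 2.48) and 2.37 (2.30 to 2.45). Tlr7, an endosomal RNA sensor, was 2.27-fold lower (1.204 to 4.57) on 46 and 13 counts. Fcer1g, an ITAM adaptor like Tyrobp and named after its value was seen, had 144 and 190 counts and a ratio of 2.06 (1.65 to 2.58). Of 188 kept genes in all lists other than the members, those nearest to the members' median were Irf5 (0.82), Fyn (0.81) and Gja1 (0.82), by log2 ratio and over these 2 libraries only.

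Other cells can carry some of these mRNAs, so their markers are given beside the result. Perivascular macrophages make C1q and Csf1r as well, and their 10 markers, of which 5 were kept, had a summed level of 25.05 CPM in homogenate and 35.4 in synaptosome RNA. By the rule 1 kept marker was higher and 0 lower, and with library totals 0 were higher and 1 lower. Mrc1 had 71 and 105 counts and a ratio of 2.31 (1.69 to 3.17), and Stab1 had 1.43 (1.18 to 1.73). Of the summed level, Stab1 gave 12.7 and 18.1 CPM and Mrc1 3.93 and 9.09. Cbr2 had 30 and 12 counts and a ratio of 0.625 (0.291 to 1.26). The other kept markers, Cd163 at 0.937 and F13a1 at 1.52, had intervals that held 1. So did the markers not kept, with Lyve1, Pf4, Clec10a and Folr2 at ratios below 1 and Ms4a7 at 2.08. Markers of blood cells were lower in the synaptosome fraction. Monocyte and neutrophil genes summed to 11.3 and 1.298 CPM, with 67 and 3 counts for S100a9, 55 and 1 for Ngp and 21 and 10 for Itgal, and 3 of 4 kept genes were lower by the rule. Lymphocyte genes summed to 13.6 and 5.19 CPM. Cd4 alone was kept, with 209 and 48 counts, and gave 11.6 and 4.15 CPM of that sum. The other lymphocyte genes had too few counts to give a direction, with Cd79a at 13 and 3, Cd3d at 7 and 6, and Cd3g at 0 in both. Red cell genes were lower in 6 of 6, Hba-a1 by 8.44-fold (7.45 to 9.59). Hba-a2, a near-identical copy of Hba-a1, had 350 and 0 counts, and reads may be divided between the copies. The part of perivascular macrophages in the ratios of the 10 members was not tested.

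The members lay between the other cell types of the brain. Astrocyte genes were higher, 12 of 14 by the rule with a median log2 ratio of 1.76, from Gja1 at a ratio of 1.77 to Ndrg2 at 6.33, and Slc1a2 and Sparcl1 had 4.33 and 3.66. Endothelial genes were lower in 13 of 15 (median -2.82), Slco1a4 by 15.0-fold, Flt1 by 6.65-fold and Ocln by 1.65-fold. Oligodendrocyte precursor genes had a median of 0.98 with 3 of 8 higher (2 higher and 1 lower with library totals), among them Tnr at 3.27 and Olig1 at 2.48, while Gpr17 had 1.90 and Sox10 was 1.65-fold lower. Mature oligodendrocyte genes had a median of 0.18 (-0.31 with library totals) with 2 of 10 higher, and Mbp stood at 5.31 and Opalin at 0.663. Of 12 neuronal genes 5 were lower and 1 higher (median -0.92; 7 lower and 1 higher with library totals), with Snap25 2.67-fold lower, Syt1 at 1.47 and Camk2a at 3.61. Genes of pericytes and fibroblasts had a median of -0.19, with 3 higher and 5 lower of 13 (with library totals a median of -0.69, 1 higher and 6 lower). Cspg4, shared with oligodendrocyte precursors, had a ratio of 3.09, Col1a2 had 2.26, and Kcnj8 was 10.4-fold lower. The list joins cell types whose genes went apart, so its median describes neither. The fibroblast genes Col1a1, Col1a2, Col3a1, Dcn and Lum had ratios from 1.52 to 2.26. The 5 lower were Rgs5, Kcnj8, Abcc9, Acta2 and Myh11. This split was named after the values were seen.

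**Figure D5:**
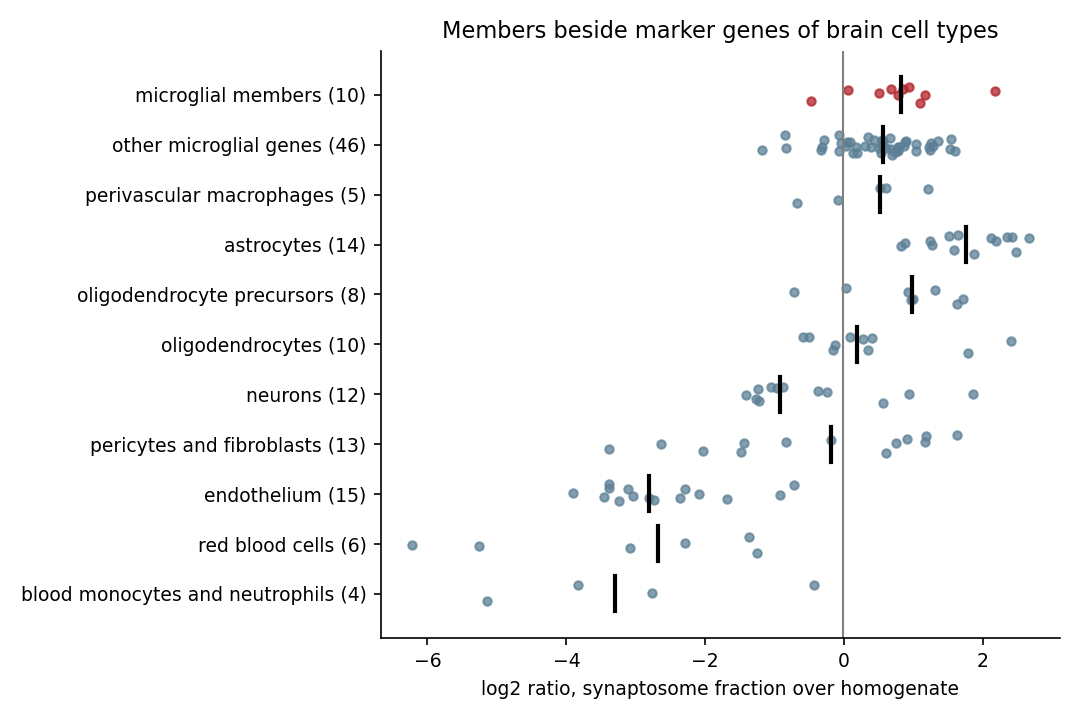
Log2 ratio of synaptosome fraction to homogenate for each kept gene of the members (red) and of marker lists for brain and blood cells (blue), with black bars at the list medians, the number of genes in brackets and the grey line at the median of all genes kept. A gene with 0 counts in 1 library is drawn at a floor of 3 counts, and the members' median of 0.81 lies between those of astrocytes (1.76) and endothelium (-2.82).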

How the data were processed

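Expression was measured by RNA-seq of 1 homogenate and 1 synaptosome library from a stranded mRNA kit. The submitters' processing notes name RSEM 1.2.5, TopHat 1.3.3, edgeR 3.0.6 and FastQC, with mm10, without saying what each did. The authors deposited expected counts and TPM for 30383 transcripts, FPKM (deposited by the authors, not used) and a table with 1 scaled signal per gene and library (per the file headers), whose scaling the sources used here do not state. Expected counts were summed per gene and rounded. TMM factors (edgeR 4.0.16, R 4.3.3) were 1.186 and 0.843. The filter kept genes whose mean CPM, by library totals, reached 1. Ratios have exact 95% Clopper-Pearson intervals, and pairs of members exact conditional odds ratios (scipy 1.17.1). Both cover counting error only, not read assignment, and PCR copies are not independent molecules. A gene at 0 in 1 library got a floor of 3 counts. The scripts were tested on simulated data. Members and lists were chosen with earlier results of these data known. Genes named are the members and, per list, the 2 most abundant and the highest and lowest ratios, plus the 3 nearest the members' median. A few genes that this rule names are not reported here. Alternatives were other scalings (DESeq2 1.42.0 among them), filters, folds and omitted members.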

Additional observations from a re-analysis of the deposited data

How the results depend on the processing

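Scaling decided how far the members lay above 0. The members' median exceeded that of all genes kept by 0.83 (log2) with TMM and with each of the 5 other scalings. A scaling multiplies the ratios of all genes by the same factor, and TPM and the deposited signal acted nearly so. This gap was therefore fixed in advance, and its sameness is no separate evidence. With library totals the log2 ratios were Tyrobp 1.68, C1qa 0.67, C1qb 0.60, Trem2 0.44, Csf1r 0.36, C1qc 0.28, Cx3cr1 0.18, Tmem119 0.0075, P2ry12 -0.44 and Gpr34 -0.97. With TPM they were Tyrobp 1.63, C1qa 0.62, C1qb 0.55, Trem2 0.40, Csf1r 0.31, C1qc 0.24, Cx3cr1 0.13, Tmem119 -0.038, P2ry12 -0.49 and Gpr34 -1.01. Under either, 1 member was at least 2-fold higher, Tyrobp, and with TPM 1 was at least 2-fold lower, Gpr34. Over all genes kept, library totals gave 636 higher and 3629 lower. A limit of 1.5-fold gave 7 members higher. Matching counts over all genes kept are not given here for that limit or for TPM, so those member counts have no background. The summed log2 ratio, 0.85, was 0.35 with library totals, 0.53 with TPM, 0.77 with upper-quartile scaling (added after seeing the data), 0.91 without P2ry12 and 0.77 without Tyrobp. In TPM, the factor against the other 9 members was 0.840 for Csf1r, 0.745 for Cx3cr1, 1.07 for C1qa, 1.02 for C1qb and 0.783 for C1qc, since a sum of TPM weights genes per length. DESeq2 size factors and the authors' deposited signal left every member within its counting interval, and so did upper-quartile scaling. No paired analysis was possible because each fraction had 1 library. With 66 counts in the synaptosome fraction, Gpr34 was the least precisely measured member.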

Other observations

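The host genes of the 2 nested receptors were measured too. Med12l, which spans P2ry12 on the opposite strand, had 696 and 312 counts and a log2 ratio of -0.51. Cask, which spans Gpr34, had 1515 and 1154 counts and a log2 ratio of 0.25. P2ry12 (0.05) thus lay above its host gene and Gpr34 (-0.47) below it.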
